A study of Mus musculus with 18 samples.

Results

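The genes described here are members of 11 families of DNA-binding factors that give cells of the embryo their position, other than the Hox genes. They were taken by name from the count table, as every gene of the *Irx*, *Tbx*, *Meis*, *Pbx*, *Pitx*, *Lhx*, *Dlx*, *Msx*, *Alx*, *Prrx* and Six-family series whose name is the family's letters followed by a number, which gave 57 of 35275 genes. The rule used no measured value, but the members were chosen with earlier results of these data known. By family they were 13 *Tbx*, 8 *Lhx*, 6 each of *Dlx*, *Irx* and Six-family, 4 *Pbx*, 3 each of *Alx*, *Meis*, *Msx* and *Pitx*, and 2 *Prrx* genes. Their RNA was measured in 6 cell lines grown from malignant peripheral nerve sheath tumors (MPNSTs), sarcomas of the nerve sheath.

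The tumors were started in wild-type 129 Sv/Jae mice by an adenovirus that was injected into the sciatic nerve and carried Cas9, driven by the ubiquitous CMV promoter, with guide RNAs. In 3 lines the guides targeted *Nf1* and *p53* (*Nf1*/*p53* dKO), and in 3 lines they targeted *Nf1* and *Cdkn2a*, the locus of p16 and p19 (*Nf1*/*Cdkn2a* dKO). Loss of *Nf1* was therefore common to all lines, the cell in which each tumor began was not fixed by the promoter, and every line came from a separate tumor. Total RNA was taken from 3 untreated cultures of each line in DMEM with 10% serum, which gave 18 libraries. The cultures of a line share its tumor, so their counts were summed and the line was the replicate (n = 3 per genotype). No sex or age of the mice was given in the labels used here.

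Homeodomain proteins bind short AT-rich DNA and T-box proteins bind a longer element through the T-box, and members of both classes are switched on in parts of the embryo along its axes and in its limbs, face, heart and muscle. Many keep acting in adult mesenchyme, where fibroblasts of different body sites carry different sets of them. *Meis* and *Pbx* proteins belong to the three-amino-acid-loop class of homeodomains, which holds other families too, and serve as DNA-binding partners of Hox proteins. Six-family proteins act with the *Eya* coactivators and *Dach* proteins in muscle, kidney and sense organ development, and LIM-homeodomain proteins of the *Lhx* family act through the *Ldb* adaptors.

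Libraries held 19560535 to 28312207 counts and lines 65206479 to 73065228. Levels are given as CPM, the count scaled to the line's total with edgeR's TMM factors. *Trp53*, which encodes p53, was at 94.1, 67.5 and 58.7 CPM in *Nf1*/*p53* dKO and at 247, 246 and 185 CPM in *Nf1*/*Cdkn2a* dKO (edgeR adjusted p = 0.0361). *Nf1* and *Cdkn2a* RNA overlapped between the genotypes (adjusted p = 0.328 and 0.830), and since Cas9 cuts can leave a transcript in place, these levels do not check the labels. The labels call the cells mesenchymal, and the 6 fibroblast markers examined (*Pdgfra*, *Pdgfrb*, *Col1a1*, *Col1a2*, *Thy1*, *Vim*) summed to 6590 to 15900 CPM in *Nf1*/*p53* dKO and 8670 to 15800 CPM in *Nf1*/*Cdkn2a* dKO lines. *Vim* alone was at 4727 to 10210 CPM over the 6 lines. The others varied more, with *Col1a1* at 302 to 4173 CPM and *Thy1* at 7.02 to 467 CPM. The Schwann cell marker *Sox10* stayed at or under 0.0990 CPM in every line.

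Of the 57 genes, 16 reached 1 CPM in all 6 lines, 20 in 1 to 5 lines and 21 in no line. A line had between 21 and 32 of them at 1 CPM or more. The *Nf1*/*p53* dKO lines had 28, 32 and 26 and the *Nf1*/*Cdkn2a* dKO lines 21, 21 and 23. Among the genes at 1 CPM or more in all lines were *Dlx2*, *Irx5*, *Lhx6*, *Lhx8*, *Meis1*, *Meis2*, *Pbx2*, *Pbx3*, *Prrx1*, *Prrx2*, *Six4*, *Six5*, *Tbx3* and *Tbx18*. *Irx4*, *Lhx5* and *Tbx19* were among those with no count in any library. A count of 0 allows up to 3 counts in a culture, or 9 in a line, which is 0.116 to 0.144 CPM, and this covers counting error only.

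**Figure D1:**
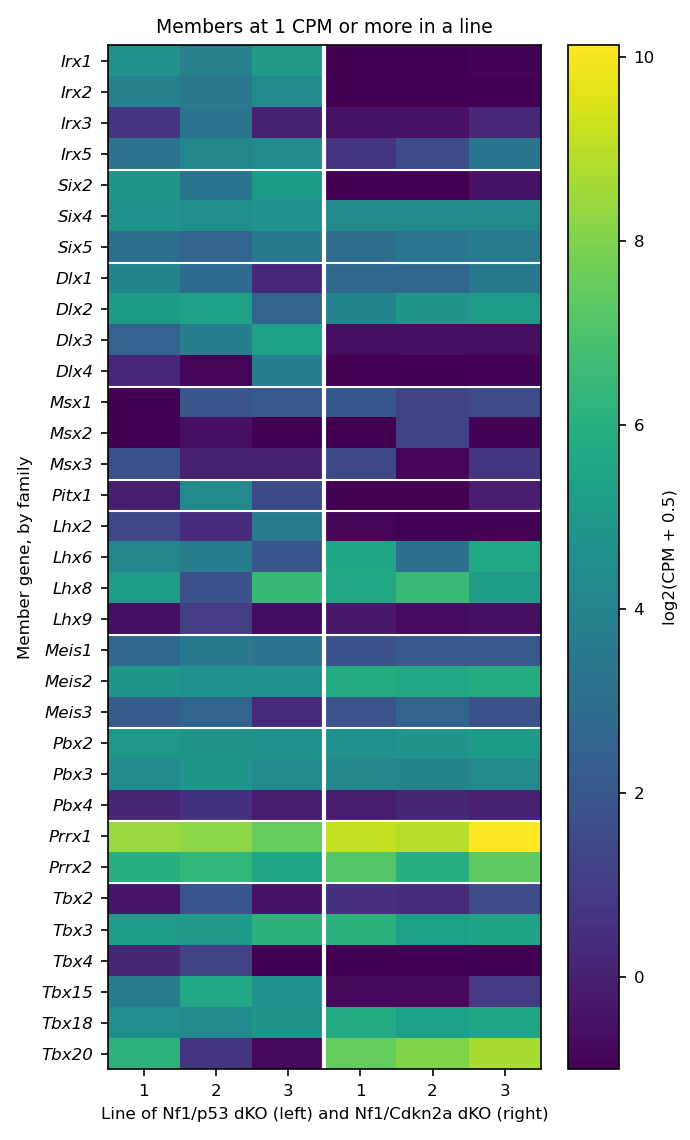
Levels of 33 members at 1 CPM or more in a line, as log2(CPM + 0.5), with genes in rows by family and the 6 lines in columns (3 *Nf1*/*p53* dKO on the left, 3 *Nf1*/*Cdkn2a* dKO on the right). *Irx1*, *Irx2*, *Six2* and *Dlx3* are at 1 CPM or more in the 3 lines on the left and in none on the right, and *Prrx1* is the brightest row, at 183 to 1117 CPM.

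Genotypes were compared with edgeR's quasi-likelihood test over the 15207 genes that passed a filter on low counts, with an adjusted p under 0.05 as the threshold. The filter kept 34 of the 57 genes, and 7 of them passed the test, where 1.80% of all genes tested did. In *Nf1*/*Cdkn2a* dKO 6 of them were lower, *Irx1*, *Irx2*, *Dlx3* and *Six2* among them, where 1.16% of all genes passed in that direction. *Meis2* was higher (1 gene, where 0.638% passed in that direction). In bulk RNA, fewer cells that express a gene and less RNA per cell cannot be told apart.

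Genes at 1 CPM in all lines of a genotype and in no line of the other were unevenly split. There were 5 such members in *Nf1*/*p53* dKO (*Dlx3*, *Irx1*, *Irx2* and *Six2* among them) and 0 in *Nf1*/*Cdkn2a* dKO, beside 176 and 54 of all 35275 genes. Lines of different genotype were fully apart for 12 members that were lower in *Nf1*/*Cdkn2a* dKO (35.3% of those tested, where 16.6% of all genes were) and for 4 that were higher (11.8%, where 14.8% were). The count of higher members was thus near the share over all genes, and nothing is read from it. An unadjusted p under 0.05 was found for 15 members (44.1%) and for 3400 of all genes (22.4%).

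The median log2 fold change of the 34 members (*Nf1*/*Cdkn2a* dKO over *Nf1*/*p53* dKO) was -0.28, with 20 below and 14 above 0, and over all genes it was -0.02. The median size of the change, whatever its sign, was 1.07 for the members and 0.38 for all genes. These medians describe the genes that passed the filter, and a gene seen in a single genotype passes through that genotype. With at least 10 counts demanded in every line, 22 members were left and their median was 0.06. Scaling to raw totals in place of TMM moved the median of all genes to -0.16 and that of the members to -0.42.

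**Figure D2:**
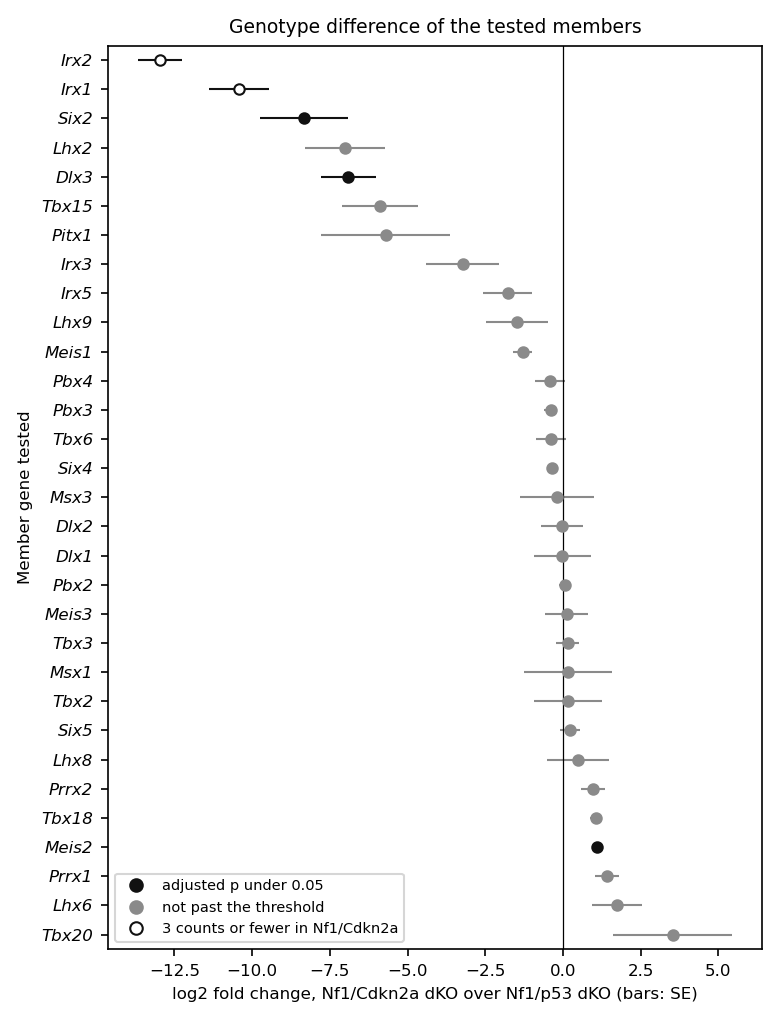
Fitted log2 fold changes of 31 of the members tested (x axis, *Nf1*/*Cdkn2a* dKO over *Nf1*/*p53* dKO, bars are SE), sorted from lowest to highest. Black points passed the test, and open points mark genes with 3 counts or fewer over all *Nf1*/*Cdkn2a* dKO cultures, whose fitted value depends on the prior count and is no bound. Of the 5 genes drawn that passed, 4 lie below 0 and *Meis2* lies at 1.08.

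The calls rested on few lines. *Irx1* and *Irx2* passed in 4 of the 6 fits that left out a line, *Dlx3* in 2, *Meis2* in 1 and *Six2* in 0, with the direction kept in each fit. Without *Nf1*/*p53* dKO line 1, 5 members passed, *Dlx3*, *Irx1*, *Irx2* and *Meis2* among them, and 1.11% of all genes did. Without line 3, 4 passed, *Dlx3*, *Irx1* and *Irx2* among them, and 0.681% of all genes. Without line 2 *Irx1* and *Irx2* passed, and 0.173% of all genes. *Irx1* and *Irx2* were also the 2 that passed without *Nf1*/*Cdkn2a* dKO line 3, where 0.145% of all genes did. Without *Nf1*/*Cdkn2a* dKO line 1 or line 2, 0 members passed, and 0 and 2 of all genes. An unadjusted p under 0.05 was found there for 14 of 37 and 16 of 36 members tested. Over all genes it was found for 2668 of 15872 and 2684 of 15791. DESeq2 on the same 6 lines called 13 members, and 14.3% of all genes.

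The stretch of 250 bases before the transcription start is shown for 3 of these genes that the promoter table holds (RefSeq, GRCm38.p6), since their RNA separated the genotypes. Promoters were matched by symbol for 37 of the 57 members, with 45 entries. *Irx1* and *Dlx3* are not among them. Capitals mark TGACAG, the core bound by *Meis* proteins, on either strand, and no other motif searched lay in these stretches. The sequences run 5′ to 3′ on the strand of the gene. *Irx2* lies at chr13:72628570-72628819 (+), *Six2* at chr17:85688255-85688504 (−) and *Meis2* at chr2:116064620-116064869 (−).
Irx2: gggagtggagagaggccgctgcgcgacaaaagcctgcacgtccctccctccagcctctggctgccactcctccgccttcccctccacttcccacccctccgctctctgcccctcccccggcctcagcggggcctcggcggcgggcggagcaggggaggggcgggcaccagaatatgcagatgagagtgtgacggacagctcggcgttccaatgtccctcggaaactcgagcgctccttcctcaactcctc
Six2: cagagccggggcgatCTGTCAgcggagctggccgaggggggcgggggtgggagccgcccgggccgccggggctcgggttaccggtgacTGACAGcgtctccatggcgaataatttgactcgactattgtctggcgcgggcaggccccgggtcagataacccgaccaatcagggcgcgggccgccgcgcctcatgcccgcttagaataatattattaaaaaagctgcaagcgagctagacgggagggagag
Meis2: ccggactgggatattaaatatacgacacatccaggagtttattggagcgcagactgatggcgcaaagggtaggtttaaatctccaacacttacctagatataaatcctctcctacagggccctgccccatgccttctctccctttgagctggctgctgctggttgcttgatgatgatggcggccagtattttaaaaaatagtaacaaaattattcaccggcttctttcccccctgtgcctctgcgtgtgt

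The *Irx2* stretch was 68.4% G or C with 19 CpG, the *Six2* stretch 64.8% with 26 CpG, and the *Meis2* stretch 47.6% with 7 CpG. The ratio of observed to expected CpG was 0.666, 1.02 and 0.497. Over the 45 member promoters the medians were 61.6% and 0.666, and over all 32851 promoters 52.4% and 0.373. *Six2* held TGACAG at 235 and at 162 bases before the start, as its reverse complement CTGTCA in the first place. TGACAG was in 10 of the 45 member promoters of 300 bases (22.2%) and in 19.2% of all promoters. TAATTA, a homeodomain core, was in 4 (8.89%, against 5.29%) and TGATTNAT, a Pbx with Hox element, in 2 (4.44%, against 3.22%). GGTGTGA, a T-box element, and ACANNTGT, an Iroquois element, were in 0 member promoters, and in 3.98% and 7.38% of all promoters. No motif overlapped another in the stretches shown. A match is a match of letters, not a bound site.

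The Iroquois genes lie in clusters of 3 and pattern the heart, limb and nervous system. *Irx1* was at 23.9, 13.7 and 32.3 CPM in *Nf1*/*p53* dKO and at 0, 0 and 0.0469 CPM in *Nf1*/*Cdkn2a* dKO. All *Nf1*/*p53* dKO lines lay above all *Nf1*/*Cdkn2a* dKO lines, where 3 counts were found in all, in a culture of line 3. The ratio of the pooled counts was 1526 (95% exact counting interval 522 to 7404, edgeR adjusted p = 0.0189).

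*Irx2* followed the same order, at 13.7, 10.1 and 19.6 CPM in *Nf1*/*p53* dKO, with no count in any of the 9 *Nf1*/*Cdkn2a* dKO cultures. It was at least 104-fold lower there, taking 3 counts per culture as the floor (edgeR adjusted p = 0.0189). In both genes line 3 was the highest and line 2 the lowest of the *Nf1*/*p53* dKO lines. Per kb of exon, *Irx1* stood at 8.90 and *Irx2* at 4.41 CPM in *Nf1*/*p53* dKO. *Irx4*, the third gene of this cluster on chromosome 13, had no count in any line, and its start lies 632 kb from that of *Irx2*, as that of *Irx1* lies 671 kb away.

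The other Iroquois cluster, *Irx3*, *Irx5* and *Irx6* on chromosome 8, overlapped between the genotypes. *Irx5* was at 8.84, 17.0 and 19.9 CPM in *Nf1*/*p53* dKO and at 1.12, 2.58 and 9.60 CPM in *Nf1*/*Cdkn2a* dKO (log2 fold change -1.78 ± 0.79 SE, adjusted p = 0.245). *Nf1*/*Cdkn2a* dKO line 3 overlapped the other genotype. *Irx3* was at 9.11 CPM in *Nf1*/*p53* dKO line 2 and at 0.225 to 1.10 CPM in the other 5 lines (edgeR adjusted p = 0.180, DESeq2 adjusted p = 0.0198). Its antisense transcript *Irx3os* also had most of its counts in line 2, 30 of 38. *Irx6* reached 0.250 CPM at most and was not tested. *Irx3* overlaps *Irx3os* on the opposite strand, and since no strand setting was given in the sources used here, reads of the pair cannot be told apart.

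**Figure D3:**
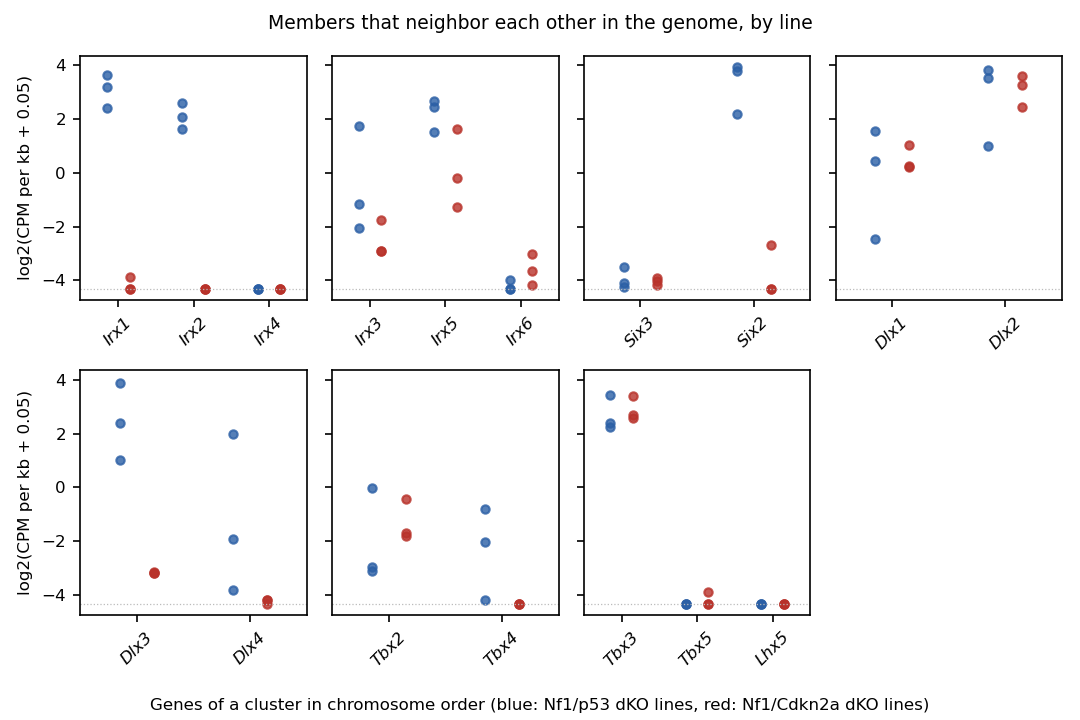
Level of each gene per kb of exon, as log2(CPM per kb + 0.05), for 7 groups of members whose starts lie within 1 Mb of the next, in chromosome order (each point is a line, blue for *Nf1*/*p53* dKO and red for *Nf1*/*Cdkn2a* dKO, dotted line for no counts). *Irx1* and *Irx2* are separated between the genotypes and *Irx4* has no count in either, while *Tbx3* overlaps between them, at 31.5 to 70.9 CPM before division by length.

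In the Six-family, *Six2*, which keeps kidney and facial mesenchyme in a progenitor state, was at 29.0, 9.46 and 32.7 CPM in *Nf1*/*p53* dKO and at 0, 0 and 0.219 CPM in *Nf1*/*Cdkn2a* dKO. All 14 counts of *Nf1*/*Cdkn2a* dKO were in line 3, and the ratio of the means was 325 (log2 fold change -8.32 ± 1.41 SE, edgeR adjusted p = 0.0465). *Six3*, 70.7 kb from *Six2* on chromosome 17, reached 0.206 CPM at most and was not tested, and its antisense transcript *Six3os1* had 7 counts in all. Per kb of exon, *Six2* stood at 11.2 CPM in *Nf1*/*p53* dKO and at 0.0344 CPM in *Nf1*/*Cdkn2a* dKO.

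*Six4*, which acts in muscle, was at 25.6, 22.7 and 25.2 CPM in *Nf1*/*p53* dKO and at 18.3, 19.6 and 19.6 CPM in *Nf1*/*Cdkn2a* dKO. The lines did not overlap, but the difference was small and did not pass the test (log2 fold change -0.35 ± 0.15 SE, adjusted p = 0.233). *Six5* lay between 5.70 and 11.5 CPM in all lines (adjusted p = 0.704). *Six6* had 3 counts in all.

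Skeletal muscle markers moved with these genes. Of the 6 examined, *Myf5* (28, 24.2 and 27.7 CPM against 0, 0 and 0.0156) and *Cdh15* were called lower in *Nf1*/*Cdkn2a* dKO, and the genotypes were apart for each of the 4 tested, where 31.4% of all genes were. Their sum was 53.7 to 417 CPM in *Nf1*/*p53* dKO and 0.203 to 0.802 CPM in *Nf1*/*Cdkn2a* dKO, where *Myod1*, *Myog* and *Pax7* were at 0. *Pax7* was at or under 0.0277 CPM in *Nf1*/*p53* dKO lines too, and *Myod1* was at 1.753, 0.269 and 204 CPM there. The part of a muscle-like state in the levels of *Six2*, *Irx1*, *Irx2* and *Dlx3* was not tested. Of the other lists, the 6 Schwann cell markers summed to 2.58 to 23.4 CPM, the 4 leukocyte markers to 3.65 to 8.0 CPM and the 4 endothelial markers to 0.641 to 2.02 CPM. Of the endothelial markers *Tek* was called lower (adjusted p = 0.0465). The 4 epithelial markers summed to 2.67 to 739 CPM, and of these *Krt8* was highest in *Nf1*/*p53* dKO line 2 (540 CPM) and *Nf1*/*Cdkn2a* dKO line 1 (601 CPM), so that it followed no genotype.

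The *Pitx* genes are paired-type homeobox genes of the limb, pituitary and left body side. *Pitx1*, a determinant of hindlimb identity, was at 0.451, 18.6 and 2.31 CPM in *Nf1*/*p53* dKO and at 0, 0 and 0.407 CPM in *Nf1*/*Cdkn2a* dKO. The lines did not overlap, but *Nf1*/*p53* dKO line 2 stood 41.3 times above line 1 and the difference did not pass (log2 fold change -5.71 ± 2.08 SE, adjusted p = 0.177). Without that line the log2 fold change was -3.32 (adjusted p = 0.357). *Tbx4*, a T-box gene of the hindlimb that acts after *Pitx1*, was also highest in *Nf1*/*p53* dKO line 2, at 0.657, 1.754 and 0.0138 CPM. It had no count in *Nf1*/*Cdkn2a* dKO, and was at least 5.84-fold lower there, taking 3 counts per culture as the floor, though too low to be tested. *Tbx5*, its forelimb counterpart, had 5 counts in *Nf1*/*Cdkn2a* dKO line 1 and none elsewhere. *Pitx3*, with 46 counts in all, was not tested.

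**Figure D4:**
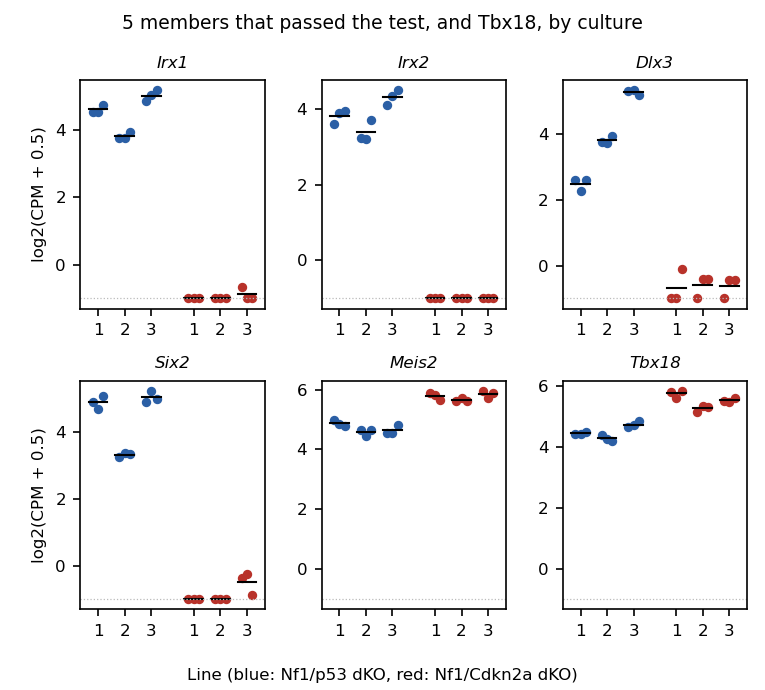
Levels of 5 members that passed the test, and of *Tbx18*, in each culture as log2(CPM + 0.5), with 3 cultures per line (blue for *Nf1*/*p53* dKO, red for *Nf1*/*Cdkn2a* dKO, black bars for the mean of a line, dotted line for no counts). Cultures of a line lie close together except for *Dlx3* in *Nf1*/*Cdkn2a* dKO, where culture 1 of each line holds 0 counts. The 9 cultures of *Nf1*/*Cdkn2a* dKO hold no count of *Irx2*.

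The *Dlx* genes act in pairs in the face, limb and forebrain, and lie as pairs in the genome. *Dlx3*, a factor of skin, placenta and bone, was at 5.10, 13.7 and 38.7 CPM in *Nf1*/*p53* dKO and at 0.160, 0.159 and 0.156 CPM in *Nf1*/*Cdkn2a* dKO. Again there was no overlap, and the ratio of the means was 121 (log2 fold change -6.90 ± 0.88 SE, edgeR adjusted p = 0.0298), on 31 counts in *Nf1*/*Cdkn2a* dKO. Culture 1 of each of these lines had 0 counts, and line 1 held its 10 counts in culture 3. The levels there lay near the floor of 0.116 to 0.144 CPM, so the ratio is uncertain. Without *Nf1*/*p53* dKO line 3 the log2 fold change was -5.87 (adjusted p = 0.038). *Dlx4*, whose start lies 20.3 kb from that of *Dlx3* on chromosome 11, was at 0.709, 0.0707 and 12.9 CPM in *Nf1*/*p53* dKO, so that line 3 stood highest for both genes, and at 0.0160 CPM or less in *Nf1*/*Cdkn2a* dKO. It did not pass the filter, and a noncoding gene overlaps it on the opposite strand.

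*Dlx1* and *Dlx2*, 15.3 kb apart on chromosome 2, overlapped between the genotypes. *Dlx2* was at 33.2, 40.2 and 5.49 CPM in *Nf1*/*p53* dKO and at 15.6, 27.3 and 34.4 CPM in *Nf1*/*Cdkn2a* dKO (log2 fold change -0.03 ± 0.68 SE, adjusted p = 0.984). *Dlx1* was at 15.5, 6.96 and 0.720 CPM and at 5.98, 6.17 and 10.7 CPM (adjusted p = 0.992). Both were lowest in *Nf1*/*p53* dKO line 3, the line that was highest for *Dlx3* and *Dlx4*. *Dlx1as*, which overlaps *Dlx1* on the opposite strand, was at 0.321 to 0.954 CPM. *Dlx5* and *Dlx6* had 19 and 3 counts in all.

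*Msx* genes mark proliferating mesenchyme of limb and face under BMP signals. *Msx1* had no count in any culture of *Nf1*/*p53* dKO line 1 and was at 1.95 to 3.98 CPM in the other 5 lines (adjusted p = 0.963). *Msx3* lay between 0.0721 and 2.94 CPM (adjusted p = 0.938). *Msx2* was seen mostly in *Nf1*/*Cdkn2a* dKO line 2, at 1.72 CPM, and was not tested.

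No LIM-homeodomain gene of the 4 tested passed in edgeR, and several differed widely between lines of a genotype. Of the 4, 1 (*Lhx2*) had an unadjusted p under 0.05 and was called by DESeq2 on the 6 lines. Over all genes those shares were 22.4% and 14.3%. *Lhx2*, a factor of forebrain, eye and limb bud, was at 2.14, 0.849 and 11.6 CPM in *Nf1*/*p53* dKO and at 0.0642, 0.0289 and 0.0156 CPM in *Nf1*/*Cdkn2a* dKO. There was no overlap, and the adjusted p of 0.0521 was just over the threshold (log2 fold change -7.01 ± 1.29 SE), on 7 counts in *Nf1*/*Cdkn2a* dKO. Without *Nf1*/*p53* dKO line 3 the log2 fold change was -5.30 (adjusted p = 0.0591). *Lhx8*, of forebrain neurons and the mesenchyme of jaw and palate, was among the most abundant members, at 34.3, 2.88 and 87.5 CPM in *Nf1*/*p53* dKO and at 49.6, 91.5 and 34.5 CPM in *Nf1*/*Cdkn2a* dKO. Line 2 of *Nf1*/*p53* dKO stood apart, and the genotypes overlapped (log2 fold change 0.49 ± 1.00 SE, adjusted p = 0.800).

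*Lhx6*, which acts with *Lhx8* in the face, was at 16.3, 12.1 and 3.28 CPM in *Nf1*/*p53* dKO and at 45.8, 8.03 and 50.9 CPM in *Nf1*/*Cdkn2a* dKO (adjusted p = 0.268). Line 2 of *Nf1*/*Cdkn2a* dKO was within the range of the other genotype. *Lhx9* reached 1.499 CPM in *Nf1*/*p53* dKO line 2 and stayed at or under 0.353 CPM elsewhere (adjusted p = 0.420). *Lhx1*, *Lhx3* and *Lhx4* had 2, 3 and 18 counts in all.

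Among the *Meis* genes, *Meis2* was higher in *Nf1*/*Cdkn2a* dKO and *Meis1* lay the other way. *Meis2* was at 28.8, 23.5 and 24.5 CPM in *Nf1*/*p53* dKO and at 54.5, 50.1 and 57.5 CPM in *Nf1*/*Cdkn2a* dKO. The means were 25.6 ± 2.80 and 54.1 ± 3.73 CPM (SD, n = 3) without overlap, 2.11-fold higher in *Nf1*/*Cdkn2a* dKO (log2 fold change 1.08 ± 0.15 SE, edgeR adjusted p = 0.0361).

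*Meis1*, its close relative, was at 6.16, 10.8 and 8.80 CPM in *Nf1*/*p53* dKO and at 2.89, 3.85 and 3.77 CPM in *Nf1*/*Cdkn2a* dKO. These lines did not overlap either, but the difference did not pass in edgeR (log2 fold change -1.29 ± 0.31 SE, adjusted p = 0.083). It passed in DESeq2 on the 6 lines (adjusted p = 0.00108). Per kb of exon, *Meis2* exceeded *Meis1* in both genotypes, at 2.13 against 0.815 CPM in *Nf1*/*p53* dKO and 4.49 against 0.333 CPM in *Nf1*/*Cdkn2a* dKO. *Meis3* lay between 0.761 and 5.52 CPM (adjusted p = 0.938).

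The *Pbx* genes, whose products are shared partners of many homeodomain proteins, differed little. *Pbx2* lay between 23.9 and 33.1 CPM (log2 fold change 0.06 ± 0.18 SE, adjusted p = 0.875). *Pbx3* was at 20, 28.1 and 19.4 CPM in *Nf1*/*p53* dKO and at 16.7, 15.8 and 18.8 CPM in *Nf1*/*Cdkn2a* dKO, without overlap but with a small difference (-0.40 ± 0.21 SE, adjusted p = 0.313). *Pbx4* reached 1.03 CPM at most (adjusted p = 0.638).

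*Prrx1* and *Prrx2*, markers of limb bud and other mesenchyme that are kept in fibroblasts, were the most abundant members per length. Over the 6 lines *Prrx2* averaged 47.7 and *Prrx1* 45.1 CPM per kb of exon, followed by *Lhx8* (19.8), *Tbx20* (13.0) and *Dlx2* (9.11). *Prrx1* was at 344, 296 and 183 CPM in *Nf1*/*p53* dKO and at 570, 488 and 1117 CPM in *Nf1*/*Cdkn2a* dKO. Every *Nf1*/*Cdkn2a* dKO line was above the others, but the difference did not pass in edgeR (log2 fold change 1.40 ± 0.39 SE, adjusted p = 0.106). It passed in DESeq2 on the 6 lines (adjusted p = 0.00681), which called 14.3% of all genes. With limma-voom on the 18 cultures, line as a random effect, its adjusted p was 0.000353, and 16.6% of all genes were called.

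*Prrx2* was at 62.2, 82.9 and 45.4 CPM in *Nf1*/*p53* dKO and at 142, 65.1 and 163 CPM in *Nf1*/*Cdkn2a* dKO, with line 2 of *Nf1*/*Cdkn2a* dKO inside the range of the other genotype (log2 fold change 0.96 ± 0.38 SE, edgeR adjusted p = 0.204). In limma-voom on the 18 cultures, which called 16.6% of all genes, its adjusted p was 0.0313. The *Alx* genes, paired-type factors of the face, were barely seen. *Alx1* had 35 counts and *Alx4* 15, and *Alx4* overlaps the abundant *Ext2* on the opposite strand.

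No T-box gene of the 6 tested passed in edgeR. For 3 of them the genotypes did not overlap, where they did not for 31.4% of all genes. Of these 3, 2 (*Tbx15* and *Tbx18*) had an unadjusted p under 0.05 and were called by DESeq2 on the 6 lines. Over all genes those shares were 22.4% and 14.3%, and nothing is read from counts this small. *Tbx18*, of vascular mural cells, ureter and somite mesenchyme, was at 21.4, 19.1 and 26.4 CPM in *Nf1*/*p53* dKO and at 54.5, 38.5 and 46.6 CPM in *Nf1*/*Cdkn2a* dKO. It was 2.09-fold higher in *Nf1*/*Cdkn2a* dKO, with an adjusted p just over the threshold (log2 fold change 1.06 ± 0.20 SE, adjusted p = 0.054) and a DESeq2 adjusted p of 0.000191.

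*Tbx15*, a factor of fast muscle fibers, adipocytes and limb and skin mesenchyme and the closest relative of *Tbx18*, lay the other way. It was at 11.8, 51.2 and 25.7 CPM in *Nf1*/*p53* dKO and at 0.0963, 0.115 and 1.28 CPM in *Nf1*/*Cdkn2a* dKO. The ratio of the means was 59.3, without overlap, and the spread within the genotypes was large (log2 fold change -5.89 ± 1.22 SE, adjusted p = 0.063). Without *Nf1*/*Cdkn2a* dKO line 3 the log2 fold change was -8.09 (adjusted p = 0.0669).

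*Tbx20*, a factor of the heart, was the member with the widest range within a genotype. It was at 73.4, 1.09 and 0.0830 CPM in *Nf1*/*p53* dKO and at 181, 257 and 420 CPM in *Nf1*/*Cdkn2a* dKO, so that the lines did not overlap. *Nf1*/*p53* dKO line 1 stood 884 times above line 3, which held 6 counts. That is under the floor of 0.116 to 0.144 CPM, so the ratio is uncertain. The genotype difference did not pass in edgeR (log2 fold change 3.53 ± 1.92 SE, adjusted p = 0.329). Without line 1 the log2 fold change was 8.93 and the adjusted p 0.0508. In limma-voom on the 18 cultures, which called 16.6% of all genes, the log2 fold change was 6.88 (adjusted p = 9.63e-05).

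*Tbx3*, of limb, breast and heart, lay between 31.5 and 70.9 CPM (adjusted p = 0.846) and *Tbx2*, its relative, between 0.235 and 3.35 CPM (adjusted p = 0.943). *Tbx6*, of somite precursors, reached 0.206 CPM at most (adjusted p = 0.669). Of the T-box genes that were not tested besides *Tbx4*, *Tbx5* and *Tbx19*, *Tbx10* had 24 counts, all in *Nf1*/*p53* dKO, *Tbx1* 7, *Tbx21* 6 and *Tbx22* 1.

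Differences between lines of a genotype were large for several members. The ratio of the highest to the lowest line, with the lowest taken as at least 3 counts, was largest for *Tbx20* (884), *Dlx4* (183), *Msx1* (103), *Tbx4* (42.3) and *Pitx1* (41.3), all within *Nf1*/*p53* dKO. The lowest line held 6 counts of *Tbx20*, 5 of *Dlx4*, 0 of *Msx1* and 1 of *Tbx4*, so these ratios and their order are uncertain. For *Tbx20* and *Lhx8* the cultures of a line stayed close in comparison. Some members at low counts varied more, as *Tbx2* at 0.147, 1.07 and 1.55 CPM in the cultures of *Nf1*/*Cdkn2a* dKO line 1. *Tbx20* was at 69.5 to 78.5 CPM over the 3 cultures of *Nf1*/*p53* dKO line 1, 0.711 to 1.43 CPM in line 2 and 0.0425 to 0.127 CPM in line 3. *Lhx8* was at 31.5 to 38.0, 2.13 to 3.48 and 83.6 to 89.9 CPM in the cultures of these lines.

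The lines that stood out were not the same from gene to gene. *Nf1*/*p53* dKO line 1 was high for *Tbx20* and had no *Msx1*. Line 2 was high for *Pitx1*, *Tbx4* and *Irx3* and low for *Lhx8*, and line 3 was high for *Dlx3*, *Dlx4* and *Lhx2* and low for *Dlx1* and *Dlx2*. The median SD of log2(CPM + 0.5) between lines was 0.623 over the members tested and 0.290 over all genes in *Nf1*/*p53* dKO, and 0.396 and 0.205 in *Nf1*/*Cdkn2a* dKO. Members were lower expressed than all genes tested, with a median of 10.8 against 18.9 CPM, and the part of level in this spread was not tested.

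**Figure D5:**
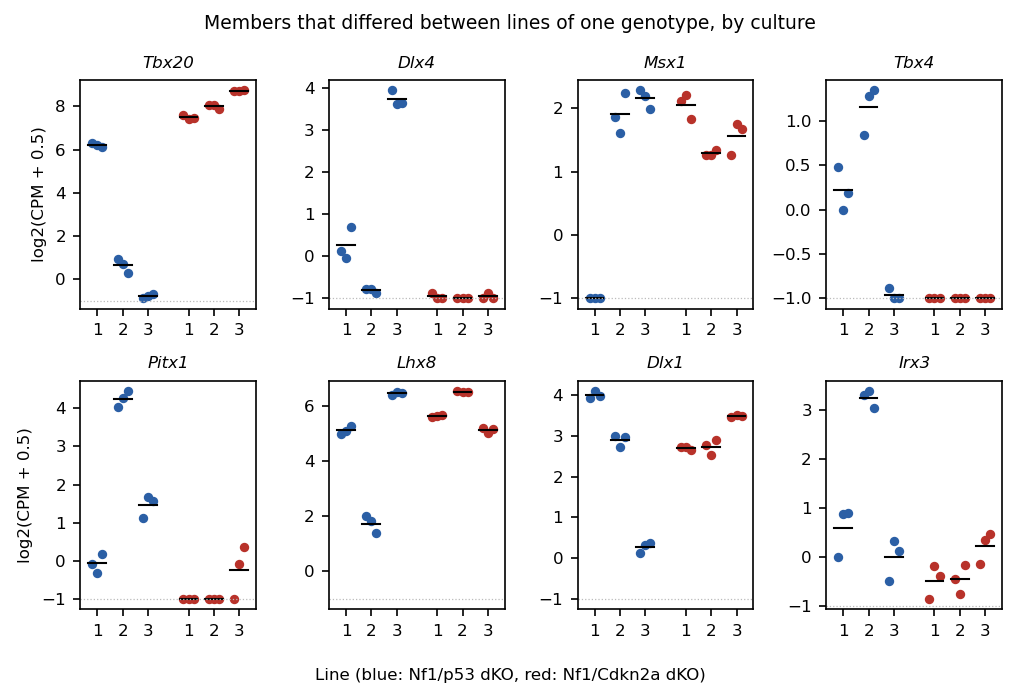
Levels of 8 members with a wide range between lines of a genotype, in each culture as log2(CPM + 0.5) (3 cultures per line, blue for *Nf1*/*p53* dKO, red for *Nf1*/*Cdkn2a* dKO, black bars for the mean of a line, dotted line for no counts). *Tbx20* falls from 73.4 CPM in *Nf1*/*p53* dKO line 1 to 0.0830 CPM in line 3, and *Msx1* has no count in any culture of line 1.

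Relatives and cofactors of these factors were read from a list of 26 genes, of which 19 were tested. *Mkx* (Mohawk), a three-amino-acid-loop factor of tendon, was the gene called. It was at 10.3, 8.90 and 7.86 CPM in *Nf1*/*p53* dKO and at 1.22, 1.139 and 1.49 CPM in *Nf1*/*Cdkn2a* dKO (log2 fold change -2.81 ± 0.28 SE, edgeR adjusted p = 0.0198). This was 1 of the 19, where 1.80% of all genes tested passed. 12 of the 19 had a log2 fold change below 0, where 51.8% of all genes did, with a median of -0.48. The genotypes did not overlap for 9, where they did not for 31.4% of all genes.

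The ends of that list were the LIM adaptor *Ldb2*, at 0.232, 4.19 and 0.650 CPM against 0, 0.0577 and 0 (log2 fold change -6.28 ± 1.65 SE, adjusted p = 0.0961), and *Dach1*, a partner of Six-family proteins, at 4.03, 0.311 and 0.982 CPM against 6.93, 17.8 and 6.57 (2.55 ± 0.95 SE, adjusted p = 0.184). *Eya1*, a coactivator of Six-family proteins that was picked out after its values were seen, was at 25.6, 6.97 and 27.9 CPM in *Nf1*/*p53* dKO and at 3.31, 1.28 and 0.156 CPM in *Nf1*/*Cdkn2a* dKO. The lines did not overlap, and the difference did not pass (adjusted p = 0.117). Its order among the *Nf1*/*p53* dKO lines was that of *Six2*, with line 2 lowest and line 3 highest. In *Nf1*/*Cdkn2a* dKO the order was not shared, as *Eya1* was lowest in line 3, the line that held all counts of *Six2*.

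Of 42 other patterning genes 24 were tested and 3 passed, where 1.80% of all genes did. All 3 were higher in *Nf1*/*Cdkn2a* dKO, where 0.638% of all genes passed in that direction. *Fgf10*, the mesenchymal growth factor of limb and lung buds, was at 16.6, 19.4 and 8.55 CPM in *Nf1*/*p53* dKO and at 68.2, 124 and 107 CPM in *Nf1*/*Cdkn2a* dKO (log2 fold change 2.74 ± 0.38 SE, edgeR adjusted p = 0.0361). *Foxf1*, a forkhead factor of gut and lung mesenchyme, was at 16.1, 3.72 and 15.9 CPM against 100, 139 and 131 CPM (3.38 ± 0.56 SE, adjusted p = 0.0465). *Twist2*, of dermal and limb mesenchyme, was at 13.5, 14.6 and 8.88 CPM against 39.9, 39.0 and 46.6 CPM (1.77 ± 0.23 SE, adjusted p = 0.0318).

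The lines did not overlap for any of these 3 genes. 15 of the 24 lay above 0, where 48.2% of all genes did, with a median of 0.67. A difference between this list and the members was not tested. The lowest fitted gene was *En1*, of the ventral limb, at 7.35, 20.01 and 10.8 CPM against 0.241, 0 and 2.89 CPM (log2 fold change -3.60 ± 1.57 SE, adjusted p = 0.239). The highest was *Cyp26b1*, which breaks down retinoic acid, at 0.941, 1.43 and 0.360 CPM against 11.7, 1.76 and 19.1 CPM (3.58 ± 0.94 SE, adjusted p = 0.0970).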

How the data were processed

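RNA sequencing of 18 cultures from 6 MPNST cell lines was analysed, 3 lines per genotype and 3 cultures per line, grouped by the labels' titles. The authors deposited raw counts of reads per gene, without normalization. The submitters' processing notes name CASAVA, STAR 2.5, DESeq2 1.14.1 and GRCm38 (mm10). The counting tool, strand setting and annotation are not given in the sources used here, so genes that overlap on opposite strands are uncertain (16 members, of which 0 passed the test). The study's statistics section gives fewer biological replicates than its legends and the labels, which were followed.

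Counts were summed per line, filtered with filterByExpr (minimum count 10, minimum total 15), scaled with TMM and tested two-sided with edgeR's quasi-likelihood test and Benjamini-Hochberg adjustment over all genes tested (edgeR 4.0.16, limma 3.58.1, DESeq2 1.42.0, R 4.3.3). SEs were derived from the F statistic. The procedure was tested on simulated counts. Positions and exon lengths are from GENCODE M21 (GRCm38), which held all 57 members. Ratios between genotypes are of mean CPM, and with 1 to 3 counts in a genotype of pooled counts with an exact (Clopper-Pearson) interval. Python 3.11.15, numpy 2.4.6, pandas 2.3.3, scipy and matplotlib were used. Depth was 19560535 to 28312207 counts per library, and no molecular identifiers are stated, so intervals and floors cover counting error only. Sampling noise was exceeded between cultures of each line (chi-square per degree of freedom 3.57 to 29.2), so none was counted as a repeat.

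The members and lists were chosen with earlier results of these data known. The members named in full are those that passed, those without overlap between genotypes, the 5 most abundant per kb, the 5 with the largest range within a genotype (highest line at 1 CPM or more), members within 1 Mb of these and their antisense transcripts. The others are given by range or count. Some genes are counted in the totals but are not reported here. Alternatives were DESeq2, its size factors, upper-quartile scaling, leaving each line out, no filter or a minimum of 10 counts per line, limma-voom and edgeR on 18 cultures, and a block for the line or culture number. Raw total scaling and the neighboring genes were added after seeing the data.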

Additional observations from a re-analysis of the deposited data

Results flagged for a closer look

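Among 18 named members in each genotype (36 sets of 9 cultures), 2 cultures stood far from the rest of their set, where chance would flag about 1 in 20 sets. The flags were thus near the chance rate, and nothing is read from them. That rate holds for independent values, and cultures of a line are not independent. The values are near the detection limit. The *Irx1* level in *Nf1*/*Cdkn2a* dKO line 3 culture 1 was 0.136 CPM, with 0 in the other 8 cultures. The *Lhx2* level in *Nf1*/*Cdkn2a* dKO line 1 culture 3 was 0.129 CPM, with 0.0534 CPM in the next.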

How the results depend on the processing

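The 7 called members were the same under DESeq2's size factors (1.85% of all genes called) and upper-quartile scaling (2.1%). Raw totals called 8 (*Lhx2* added), and 2.78% of all genes. No filter gave 9 (*Lhx2* and *Tbx15* added), and 1.72% of all genes. DESeq2 on the 6 lines called 13 (10 lower, 3 higher), with 7 related and 8 patterning genes, and 14.3% of all genes. At least 10 counts in every line left 22 members, of which 3 were called (2 lower), and 1.73% of all genes were called. Genotypes did not overlap for 8 of the 22, and that share over all genes was not computed under this filter. *Irx1*, *Irx2* and *Six2* were not among the 22. limma-voom called 14 (5 higher), 4 related and 10 patterning genes, and 16.6% of all genes. The 18 cultures as separate samples gave 20 (14 lower, 6 higher), 11 related and 20 patterning genes, and 46.5% of all genes. The culture number as a replicate block gave 20 (14 lower, 6 higher), 11 and 17, and 43.3% of all genes. With the line number as a replicate block edgeR called 0 members (0 lower, 0 higher), 0 related, 0 patterning and 0 of all genes, with 14 members and 2740 genes at an unadjusted p under 0.05. Lines of 1 number correlated at -0.133 to -0.0848 and cultures at -0.0549 to 0.0823, so numbers do not pair samples.

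Leaving out a line gave 0 to 5 members called, 0 to 4 lower, 0 to 1 higher, 0 to 1 related and 0 to 2 patterning genes, and 2 lines left in a genotype limit these fits. Reversed signs, all of uncalled genes, were *Dlx2* (0.33 with limma-voom, 0.21 with the line number as a block, and -0.51 to 0.42 with a line left out), *Msx1* (-0.43 to 0.72 with a line left out) and *Lhx8* (-0.042 to 1.66 with a line left out). The cause was not tested. The median with *Irx2* at its bound was -0.28. Of 311 values of named genes under the alternatives, 233 kept their side of the threshold and sign. Of the 23 members not tested, 16 had 1 to 100 counts in all and 4 had none.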

Other observations

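Genes beside members that passed were examined after the members' values were seen. The nearest tested protein-coding gene on each side of the clusters of *Dlx3*, *Irx1* and *Irx2*, *Meis2* and *Six2*, 43.3 to 1320 kb away, gave 8 genes, and the lowest adjusted p among them was 0.107. *Srbd1*, beyond *Six2*, was at 32.5, 33.2 and 33.1 CPM in *Nf1*/*p53* dKO and at 22.9, 22.9 and 24.7 CPM in *Nf1*/*Cdkn2a* dKO (edgeR adjusted p = 0.107). The log2 fold change of *Itga3*, beside *Dlx3*, was 1.22 (adjusted p = 0.248), opposite in sign to that of *Dlx3*.

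A pair of noncoding genes was picked out after their values were seen. *RP23-449G13.1*, on the chromosome of *Six2*, was at 0.683, 0.325 and 0.498 CPM in *Nf1*/*p53* dKO and at 0, 0 and 0.0156 CPM in *Nf1*/*Cdkn2a* dKO (edgeR adjusted p = 0.0388). *A730090H04Rik*, which overlaps *Dlx4* on the opposite strand, was at 0.412, 0.0566 and 9.63 CPM in *Nf1*/*p53* dKO and had no count in *Nf1*/*Cdkn2a* dKO, in the order of *Dlx4*. It was not tested, and reads of the pair cannot be told apart.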
